A study of Mus musculus with 18 samples.

Results

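The collagen genes were described here across 18 subcutaneous B16F10 melanomas of the mouse. They were chosen by name alone, as every gene of the deposited table whose symbol is Col, a type number, a and a chain number. This rule found 44 of 41079 genes. The mean over the 18 tumors was at least 1 FPKM (fragments scaled to gene length and to the fragments assigned in each tumor) for 24 of them, and only these entered the tests. Another 11 had a mean between 0.1 and 1 FPKM, and 9 had a mean under 0.1 FPKM.

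Collagens are proteins in which 3 alpha chains wind into a triple helix, and most of them are secreted. The 3 chains can be alike or differ, and each kind of chain is encoded by its own gene. Fibrillar collagens build the cables of the dermis and of tumor stroma and are made mainly by fibroblasts. Type IV collagen forms the sheet of the basement membrane around vessels and under epithelia, where endothelial cells and pericytes are known sources, and types VII and XVII fasten the epidermis to the dermis and are made mainly by keratinocytes.

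B16F10 is a melanoma cell line of C57BL/6 origin, and its cells were injected under the skin of female C57BL/6 mice. Injections into the tumors began on day 6, at a volume of about 50 mm³, and were repeated every 2 days, and the tumors were taken 48 h after the last one. PS473 is a pistol ribozyme, a small RNA that cuts RNA, directed against the mRNA of the immune checkpoint ligand PD-L1. The 6 groups of 3 tumors were named for what was injected. PBS stands for buffer, Free PS473 for naked ribozyme, and PS473@CPs for ribozyme complexed to cationic polymers. NKMOF-101-[Mn] is an empty metal-organic framework of manganese, which M5@NKMOF-101-[Mn] loads with an inactive ribozyme and PS473@NKMOF-101-[Mn] with the active one. All 6 groups share the strain, the cell line and the injected site, and the host's own skin and stroma remain in the model. Whole tumors were sequenced, so that fewer cells of a type and less RNA per cell cannot be told apart in any value below. The titles of the last group spell its framework NKMOF-102-[Mn]. It was read as NKMOF-101-[Mn], the only framework that the protocol and the study's methods name. By these methods cells were placed in 1 flank of each mouse. Which mice gave the 3 tumors of a group is not stated, and the p values measure the spread between these tumors.

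The melanoma label held in the data: 10 of 10 melanoma markers averaged at least 1 FPKM, and their mean log2(FPKM + 1) lay between 7.64 and 8.36 in the 18 tumors. With the most common value after scaling by gene length read as 1 fragment, the depth was estimated at 17213000 to 28402000 fragments per tumor. Markers of skin epithelium differed far more between tumors than those of melanoma, with a mean log2(FPKM + 1) of 11 genes from 0.00 to 5.80. Their summed FPKM ran from 0.0365 in PBS tumor 1 to 3252 in PS473@CPs tumor 2, and Krt14, a keratin of basal keratinocytes, was listed at 0 in some tumors. Every group held a tumor with a score under 0.1, while the highest score differed between groups. The score spanned 0.00 to 5.21 in PBS, 0.03 to 2.40 in Free PS473, 0.01 to 5.80 in PS473@CPs, 0.02 to 4.54 in NKMOF-101-[Mn], 0.01 to 3.26 in M5@NKMOF-101-[Mn] and 0.05 to 3.24 in PS473@NKMOF-101-[Mn]. The mean of Krt14 ran from 26.6 FPKM in PS473@NKMOF-101-[Mn] to 908 FPKM in PBS.

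The summed mean of the collagen genes was 363 FPKM, of which the fibrillar class held 59.5%, the basement membrane class 15.2% and the beaded filament class 11.4%. The fibril-associated class held 5.50%, the multiplexins 4.10%, the epidermal anchoring class 3.37%, the hexagonal network class 0.841% and the transmembrane class 0.132%. The sum of all collagens was lowest in Free PS473 tumor 2, at 113 FPKM, and highest in PS473@CPs tumor 2, at 960.1 FPKM, an 8.48-fold range. The composition moved with the amount. Fibrillar genes held 34.6% of collagen FPKM in Free PS473 tumor 2 and 68.8% in PBS tumor 2, while the basement membrane share was 31.8% in the former and 9.04% in the latter. The fibrillar sum itself ranged 16.9-fold over the tumors and the basement membrane sum 5.00-fold.

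**Figure D1:**
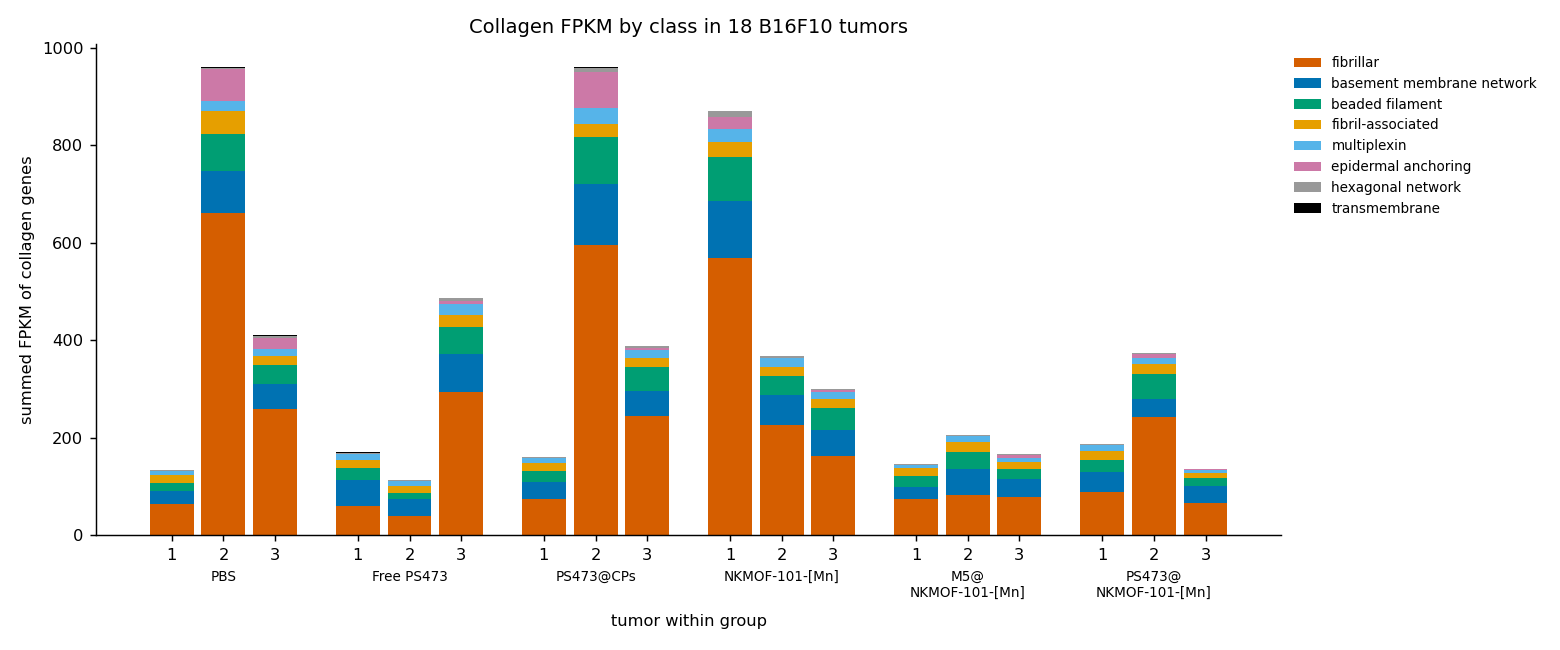
Stacked bars give the summed FPKM of the collagen genes in each of the 18 tumors, colored by class, with tumors 1 to 3 of each group side by side. PBS tumor 2, PS473@CPs tumor 2 and NKMOF-101-[Mn] tumor 1 reach 870.9 to 960.1 FPKM, whereas the 3 M5@NKMOF-101-[Mn] tumors lie between 147 and 206 FPKM.

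Col1a1, the major chain of type I collagen of skin, bone and scar, was the most abundant collagen, with a mean of 91.1 FPKM. Its levels in tumors 1, 2 and 3 were 25.7, 292 and 112 FPKM in PBS, 18.7, 13.7 and 108 FPKM in Free PS473, and 27.5, 271 and 111 FPKM in PS473@CPs. They were 233, 96.2 and 71.4 FPKM in NKMOF-101-[Mn], 31.3, 29.7 and 29.4 FPKM in M5@NKMOF-101-[Mn], and 36.7, 107 and 25.4 FPKM in PS473@NKMOF-101-[Mn]. High and low tumors occurred together in 4 groups (PBS, PS473@NKMOF-101-[Mn], Free PS473 and PS473@CPs), and the M5@NKMOF-101-[Mn] tumors lay close to each other. The group means were 143 ± 136 (SD, n = 3) in PBS, 46.8 ± 53.0 in Free PS473, 136 ± 124 in PS473@CPs, 134 ± 87.0 in NKMOF-101-[Mn], 30.1 ± 1.02 in M5@NKMOF-101-[Mn] and 56.4 ± 44.3 in PS473@NKMOF-101-[Mn]. The SD was close to or above the mean in 3 groups, and neighbours in the order of the means all overlapped. Groups farther apart in that order did not all overlap. The M5@NKMOF-101-[Mn] tumors (29.4 to 31.3 FPKM) all lay below the NKMOF-101-[Mn] tumors (71.4 to 233 FPKM). These 2 groups were not compared in the tests, and the share of all genes that did not overlap between them was not counted.

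Its partner chain Col1a2 (mean 52.9 FPKM) and Col3a1, the single chain of type III collagen that mixes with type I in skin and vessel walls (47.5 FPKM), followed the same tumors. Col1a2 ranged from 7.28 FPKM in Free PS473 tumor 2 to 164 FPKM in PBS tumor 2, and Col3a1 from 6.13 to 151 FPKM in the same tumors. The ratio of Col1a1 to Col1a2, whose proteins assemble as 2 chains to 1, had a median of 1.77 and stayed between 1.42 and 1.93 while Col1a1 itself ranged 21.4-fold. The ratio of Col3a1 to Col1a1 had a median of 0.508 and stayed between 0.407 and 0.716.

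The regions before the starts of these co-varying genes are shown because they differ in letters. The RefSeq promoter table (build GRCm38.p6, 250 bases before to 50 after a gene's start) held windows for 35 of the 44 collagens, and none for Col1a1. Bases that GENCODE annotates as an exon were left out of the printed stretches. Capitals mark 3 motifs searched on both strands: TATAAA (the TATA box), the CCAAT box and the GC box GGGCGG. A match on the other strand is capitalized in its reverse form. The Col1a2 stretch lies at chr6:4505370-4505492 and the Col3a1 stretch at chr1:45311288-45311537, both on the plus strand and read 5′ to 3′.
Col1a2: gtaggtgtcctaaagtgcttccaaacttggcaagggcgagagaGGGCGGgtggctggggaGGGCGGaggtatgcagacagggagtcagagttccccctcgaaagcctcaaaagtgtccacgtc
Col3a1: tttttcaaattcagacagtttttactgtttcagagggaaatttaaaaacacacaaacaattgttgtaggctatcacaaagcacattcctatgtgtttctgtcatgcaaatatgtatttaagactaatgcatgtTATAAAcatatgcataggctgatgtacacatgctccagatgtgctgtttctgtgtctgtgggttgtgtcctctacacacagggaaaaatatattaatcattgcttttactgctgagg

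The Col3a1 stretch had a GC content of 35.2%, 0 CpG dinucleotides and 1 TATAAA, and the Col1a2 stretch had 59.4%, 5 CpG and 2 GGGCGG. The 2 stretches are unlike in place, since that of Col1a2 covers only 126 to 248 bases before the start and that of Col3a1 1 to 250. The whole Col1a2 window held 13 CpG and also CCAAT, and the whole Col3a1 window 0 CpG. Over whole windows, GGGCGG occurred in 23 of 38 collagen windows (60.5%) and in 35.7% of all 32851 windows. The 38 windows belong to 35 genes, and some overlap. They were also richer in GC (median 59.8% against 52.7%) and in CpG (median 11.5 against 7), and the part of this in the GGGCGG share was not tested. TATAAA occurred in 5 collagen windows (13.2%, against 13.6% of all) and CCAAT in 13 (34.2%, against 37.4%). A match describes letters in a window and is not a bound site.

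Type V collagen nucleates the type I fibril, and its chains differed in how widely they ranged. Of these chains only Col5a2 was set against Col1a1 in a correlation. Col5a2 (mean 7.10 FPKM), the gene next to Col3a1 on chromosome 1, had the widest range of the fibrillar genes, 27.3-fold, from 0.922 FPKM in Free PS473 tumor 2 to 25.1 FPKM in PBS tumor 2. Col5a1 (5.46 FPKM) ranged 6.51-fold and Col5a3 (7.77 FPKM) 5.28-fold. Accordingly the ratio of Col5a1 to Col5a2 was not constant and ran from 0.548 in NKMOF-101-[Mn] tumor 1 to 3.03 in Free PS473 tumor 2.

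The cartilage-type fibrillar chains were low. Col2a1, the type II collagen of cartilage, had levels in tumors 1, 2 and 3 of 1.41, 1.99 and 1.46 FPKM in PBS, 5.76, 1.31 and 6.52 FPKM in Free PS473, 1.89, 3.51 and 1.25 FPKM in PS473@CPs, 2.49, 1.22 and 4.58 FPKM in NKMOF-101-[Mn], 0.686, 2.16 and 0.926 FPKM in M5@NKMOF-101-[Mn], and 1.55, 1.90 and 0.625 FPKM in PS473@NKMOF-101-[Mn]. The highest values were those of Free PS473 tumors 1 and 3, with tumor 2 of that group among the lower ones. Col11a2, a type XI chain of cartilage fibrils, had a mean of 1.37 FPKM. The 8 cartilage and bone markers were divided. Acan, the aggrecan gene, and Ibsp, Matn1 and Sp7 had means under 0.1 FPKM, whereas Hapln1, the link protein of aggrecan, had a mean of 10.1 FPKM, Matn3, a matrilin, 1.06 FPKM, Chad 0.756 FPKM and Bglap 0.207 FPKM. Hapln1 and Matn3 were highest in Free PS473 tumor 3, at 21.3 and 2.24 FPKM, as was Col2a1. Their part in the Col2a1 values was not tested.

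The basement membrane genes split into a variable and a flat pair. Col4a2 (mean 27.1 FPKM) and Col4a1 (23.9 FPKM), the chains of the ubiquitous type IV network, ranged 6.11-fold and 5.95-fold. Col4a1 levels in tumors 1, 2 and 3 were 9.66, 36.3 and 22.8 FPKM in PBS, 24.1, 14.3 and 35.3 FPKM in Free PS473, 15.0, 57.5 and 21.9 FPKM in PS473@CPs, 53.7, 27.1 and 21.8 FPKM in NKMOF-101-[Mn], 10.3, 22.7 and 14.2 FPKM in M5@NKMOF-101-[Mn], and 15.7, 14.6 and 14.0 FPKM in PS473@NKMOF-101-[Mn]. Every NKMOF-101-[Mn] tumor lay above every PS473@NKMOF-101-[Mn] tumor, and all other groups overlapped the latter. The ratio of Col4a2 to Col4a1 had a median of 1.14 and stayed between 0.966 and 1.27.

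Col4a1 and Col4a2 lie head to head on opposite strands of chromosome 8. Their RefSeq starts are 21 bases apart, placed so that the first bases of the genes overlap, and their promoter windows share 78 bases (GRCm38.p6). Col4a6 and Col4a5 also lie head to head, on chromosome X, but with a gap: their starts are 1343 bases apart and their windows share no base. Their levels were unlike: Col4a5, a chain of the networks of kidney and smooth muscle, had a mean of 3.18 FPKM, while Col4a6 had 0.0315 FPKM. Col4a5 was the flattest collagen tested, between 2.07 and 3.90 FPKM in the 18 tumors (1.89-fold), and Col4a4, a chain of the kidney filter, lay between 0.724 and 1.60 FPKM (2.22-fold). Its partner in that network, Col4a3, had a mean of 0.0284 FPKM.

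Among the beaded filament genes, type VI collagen, which links cells to the interstitial matrix, was the most abundant. Col6a1 had a mean of 15.6 FPKM, Col6a3 10.4 FPKM and Col6a2 9.66 FPKM, and each ranged 9.34-fold to 11.7-fold. The ratio of Col6a1 to its neighbour on chromosome 10, Col6a2, had a median of 1.65 and stayed between 1.35 and 1.83, and that of Col6a1 to Col6a3 ran from 1.12 to 2.65. The other type VI chains were low, with means of 0.113 FPKM for Col6a4, 0.0186 FPKM for Col6a6 and 0.0164 FPKM for Col6a5. Col28a1, a type VI relative known from peripheral nerve, had a mean of 5.42 FPKM and a pattern of its own, from 0.633 FPKM in PBS tumor 1 to 12.7 FPKM in NKMOF-101-[Mn] tumor 1. Markers of Schwann cells had a mean log2(FPKM + 1) of only 0.69 to 1.24, and their part in the Col28a1 values was not tested.

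The 3 fibril-associated genes tested behaved differently. Col16a1 was the seventh most abundant collagen (mean 11.7 FPKM) and varied little, with group means of 11.7 ± 1.45 (SD, n = 3) in PBS, 11.6 ± 2.82 in Free PS473, 11.8 ± 2.02 in PS473@CPs, 12.3 ± 1.34 in NKMOF-101-[Mn], 12.1 ± 2.03 in M5@NKMOF-101-[Mn] and 10.9 ± 3.24 in PS473@NKMOF-101-[Mn]. The highest and the lowest of these means differed by less than the SD within each group except NKMOF-101-[Mn]. Col12a1, which decorates type I fibrils, ranged from 0.231 FPKM in Free PS473 tumor 2 to 28.8 FPKM in PBS tumor 2, a 125-fold range. Col20a1 had a mean of 1.97 FPKM.

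The multiplexins, Col15a1 and Col18a1 (the precursor of endostatin), are basement membrane collagens rich around vessels. Col15a1 levels in tumors 1, 2 and 3 were 5.59, 10.5 and 7.56 FPKM in PBS, 8.55, 7.68 and 14.3 FPKM in Free PS473, 6.57, 17.1 and 10.9 FPKM in PS473@CPs, 18.3, 12.9 and 9.52 FPKM in NKMOF-101-[Mn], 5.32, 7.88 and 4.85 FPKM in M5@NKMOF-101-[Mn], and 9.19, 7.68 and 4.86 FPKM in PS473@NKMOF-101-[Mn]. The NKMOF-101-[Mn] tumors all lay above those of PS473@NKMOF-101-[Mn]. Col18a1 ranged from 2.15 to 16.9 FPKM (7.89-fold). Col8a1, the hexagonal network chain of vessel walls and of the cornea, had levels of 10.1, 3.21 and 1.39 FPKM in NKMOF-101-[Mn], 1.18, 1.30 and 0.905 FPKM in PS473@NKMOF-101-[Mn] and 0.580, 0.744 and 0.588 FPKM in M5@NKMOF-101-[Mn]. These 3 groups did not overlap each other in Col8a1. Such a gap is not rare: between PS473@NKMOF-101-[Mn] and the empty framework, 7.91% of all genes tested showed it in either direction. Between the active and the inactive ribozyme in the framework the share was 4.48%. The empty framework was not tested against the one with inactive ribozyme, and no share of all genes was counted for that pair.

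**Figure D2:**
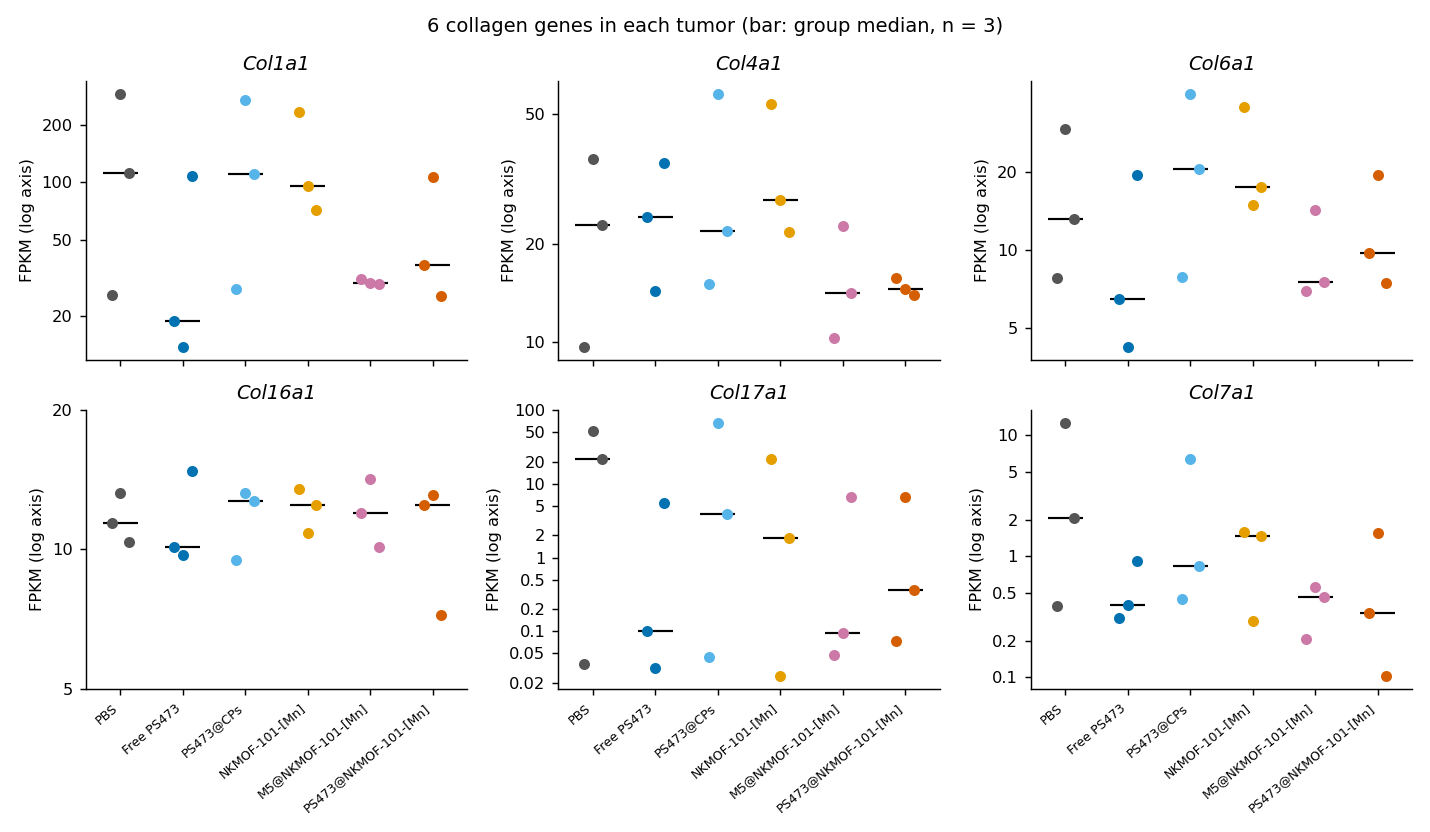
Points give the FPKM of 6 collagen genes in each tumor on a log axis, with a bar at the median of each group (n = 3). Col16a1 stays between 7.21 and 14.8 FPKM, whereas Col17a1 runs from 0.0245 to 67.9 FPKM, with a tumor under 0.1 FPKM and one above 5 FPKM in every group.

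Among the collagens tested, Col17a1, an epidermal anchoring gene, had the widest range. The range of Col7a1, the other gene of this class, was close to that of Col12a1, and its SD of log2(FPKM + 1) was lower (0.955 against 1.28). Col17a1, a transmembrane collagen of the hemidesmosome, had levels in tumors 1, 2 and 3 of 0.0362, 52.5 and 21.6 FPKM in PBS, 0.0992, 0.0318 and 5.52 FPKM in Free PS473, 0.0450, 67.9 and 3.96 FPKM in PS473@CPs, 21.9, 0.0245 and 1.82 FPKM in NKMOF-101-[Mn], 0.0474, 0.0947 and 6.57 FPKM in M5@NKMOF-101-[Mn], and 0.0728, 6.68 and 0.359 FPKM in PS473@NKMOF-101-[Mn]. Every group had a tumor under 0.1 FPKM and a tumor above 5 FPKM, a 2775-fold range over all tumors. Col7a1, the chain of the anchoring fibrils that tie the epidermis to the dermis, ranged 125-fold, from 0.102 FPKM in PS473@NKMOF-101-[Mn] tumor 3 to 12.7 FPKM in PBS tumor 2. The skin epithelium score was 5.21 in PBS tumor 2 and 5.80 in PS473@CPs tumor 2, the tumors with the highest levels of both genes.

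The stretches before the starts of both genes are shown to set this pair beside the fibrillar genes. The Col7a1 stretch lies at chr9:108953336-108953585 on the plus strand and the Col17a1 stretch at chr19:47692095-47692292 on the minus strand, with capitals as above.
Col7a1: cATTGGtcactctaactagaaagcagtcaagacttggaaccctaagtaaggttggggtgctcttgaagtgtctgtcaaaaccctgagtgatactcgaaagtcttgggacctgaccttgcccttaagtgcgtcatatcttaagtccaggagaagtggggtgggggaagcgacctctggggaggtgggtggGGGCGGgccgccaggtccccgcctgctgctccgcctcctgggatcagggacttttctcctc
Col17a1: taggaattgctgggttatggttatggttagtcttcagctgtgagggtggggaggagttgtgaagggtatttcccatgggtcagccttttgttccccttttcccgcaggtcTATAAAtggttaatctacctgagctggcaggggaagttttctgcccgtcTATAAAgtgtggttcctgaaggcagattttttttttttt

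The Col17a1 stretch held 2 TATAAA and 0 GGGCGG, and the Col7a1 stretch held 1 GGGCGG, 1 CCAAT in reverse and 0 TATAAA. Over their whole windows both genes held CCAAT, which for Col17a1 lay outside the printed stretch (53 to 250 bases before the start), while only Col17a1 held TATAAA and only Col7a1 held GGGCGG.

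The 20 collagens with a mean under 1 FPKM were not tested. The highest of them were Col14a1 (mean 0.952 FPKM), just under the limit, and Col9a3 (0.761 FPKM), while Col4a4 lay just above it at 1.11 FPKM. The transmembrane class, Col13a1, Col23a1 and Col25a1, had no member at 1 FPKM, and its sum ran from 0.109 to 2.07 FPKM. Listed at 0 in at least 1 tumor were 9 of the 44 genes. At these depths such values rest on few fragments.

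The same tumors were at the extremes for most collagens. Over the 24 genes tested, NKMOF-101-[Mn] tumor 1 was among the highest 3 tumors for 18, PS473@CPs tumor 2 for 17 and PBS tumor 2 for 15. Free PS473 tumor 2 and PS473@NKMOF-101-[Mn] tumor 3 were among the lowest 3 for 13 genes each, and PBS tumor 1 and M5@NKMOF-101-[Mn] tumor 1 for 11 each. PBS tumor 2 held the highest level for 8 of 24 collagens and for 5.74% of the 12357 genes tested, and PS473@CPs tumor 2 for 7 collagens and 7.58% of genes. A range over 10-fold was seen for 12 of the 24 collagens, and 3 ranged under 3-fold (Col4a5, Col16a1 and Col4a4). The median range was 9.95-fold, whereas it was 1.72-fold over the 12095 tested genes with no tumor at 0.

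**Figure D3:**
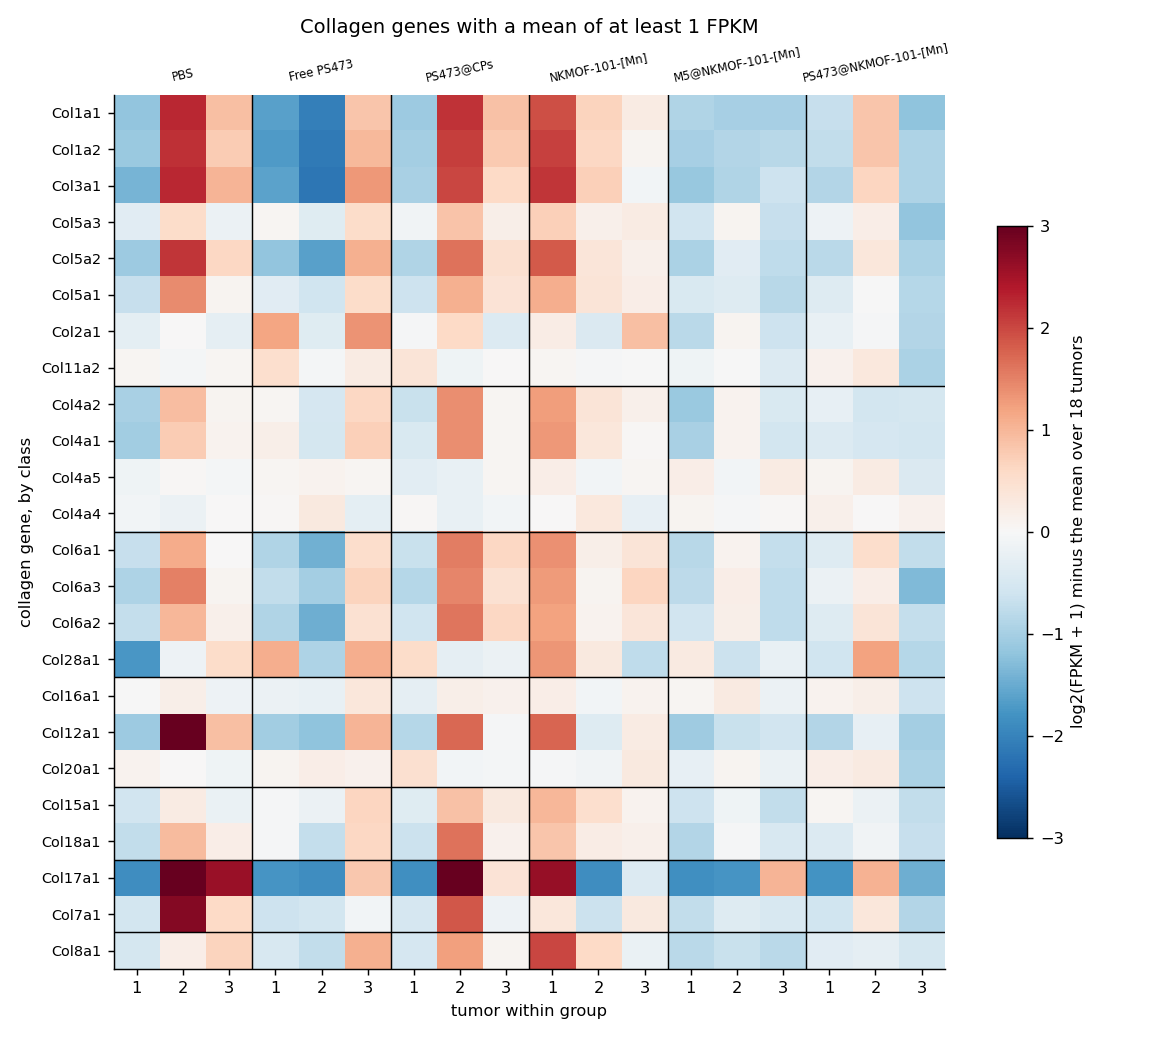
Colors give log2(FPKM + 1) minus the mean over the 18 tumors for the 24 collagens tested, in rows by class, with tumors in columns by group. Red columns cut across the classes in PBS tumor 2, PS473@CPs tumor 2 and NKMOF-101-[Mn] tumor 1, while Col4a5, Col4a4 and Col16a1 stay pale, with ranges of 1.89-fold to 2.22-fold.

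PS473@NKMOF-101-[Mn] tumor 3 had the lowest level for 9 of 24 collagens. It had the lowest level for 20.7% of all genes tested too, more than any other tumor. Col20a1 was 0.501 FPKM there and between 1.44 and 3.03 FPKM in the other 17 tumors, Col11a2 was 0.195 FPKM against 0.743 to 2.29 FPKM, and Col9a3, which was not tested, was 0.170 FPKM against 0.552 to 1.28 FPKM. Col16a1 was 7.21 FPKM there and 9.50 to 14.8 FPKM elsewhere. The melanoma score of this tumor was 8.24, within the range of the other tumors, and its depth was 20438000 fragments. This tumor and the genes named in it were singled out with their values in view.

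The question of the design, whether collagen levels differed with treatment, was put to limma on log2(FPKM + 1), with PS473@NKMOF-101-[Mn] set against the 5 remaining groups in turn and PBS against the other 4. A call needed an adjusted p under 0.05 and a change of more than 1 on the log2 scale in either direction. No collagen was called in any of these 9 comparisons. The background was the same, with 0 of 12357 genes called (0%) in each comparison. The smallest adjusted p of a collagen was 0.948. The limma F test over the 6 groups called 0 collagens and 0 genes (0%), and at an unadjusted p under 0.05 it held 0 of 24 collagens, beside 1.99% of all genes. Its smallest unadjusted p for a collagen was 0.0713, for Col15a1. The comparisons share tumors, and their counts are not independent of each other.

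Against PBS, 21 of 24 collagens had a lower mean in PS473@NKMOF-101-[Mn], with a median log2 fold change of -0.44, and the median of all genes tested was -0.01. Col1a1 had a log2 fold change of -1.01 (SE 0.96, 95% interval -3.07 to 1.04), Col17a1 of -2.27 and Col12a1 of -1.79. No collagen reached an unadjusted p under 0.05 (limma, background 2.1%) and none was separated between the groups (background 4.66%). The Col1a1 interval includes 0 and changes of 2-fold in either direction. Markers were lower as well, with a median log2 fold change of -2.11 for 10 tested genes of skin epithelium, -0.52 for 7 of fibroblasts and -0.48 for 6 of pericytes, and 0 of them had an unadjusted p under 0.05 (limma). Their part in the collagen values was not tested.

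Against PS473@CPs, 22 of 24 had a lower mean in PS473@NKMOF-101-[Mn] (median -0.70, all genes 0.00), with 0 at an unadjusted p under 0.05 (limma, 2.29%) and 0 separated (4.12%). There the median log2 fold change was -1.18 for skin epithelium markers, -0.73 for endothelium and -0.64 for fibroblasts, each list with 0 genes at an unadjusted p under 0.05 (limma). The 6 tested pericyte genes had a median of -0.63. Among them 1, Mcam, was lower at that level (-0.67, limma unadjusted p = 0.0289, adjusted p = 0.996). Mcam was named here and below with its values in view. Its mean of 49.0 FPKM was the highest of the pericyte list. It ranged 2.92-fold over the tumors, whereas the other tested pericyte genes ranged 5.83-fold (Des) to 6.98-fold (Cspg4). Mcam was thus unlike the rest of its list, and the part of pericytes or of melanoma cells in its level was not tested. Against Free PS473, 15 of 24 were lower (median -0.20, all genes -0.04), and only Col2a1 had an unadjusted p under 0.05 (background 4.98%). The Col2a1 log2 fold change was -1.10 (SE 0.44, limma unadjusted p = 0.0248, adjusted p = 0.948), and without Free PS473 tumor 3 it was -0.79 with an unadjusted p of 0.118 in the limma fit. No collagen was separated there (background 6.82%). Both cartilage and bone markers tested, Matn3 and Hapln1, were lower at an unadjusted p under 0.05 too (limma, median log2 fold change -0.92, smallest adjusted p = 0.781). The score of that list spanned 0.69 to 0.96 in Free PS473 and 0.44 to 0.63 in PS473@NKMOF-101-[Mn]. Of 6 tested pericyte genes 1, Mcam, was lower at an unadjusted p under 0.05 (-0.88, limma unadjusted p = 0.00611, adjusted p = 0.781). The median of that list was -0.19.

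Against NKMOF-101-[Mn], 23 of 24 collagens had a lower mean in PS473@NKMOF-101-[Mn], with a median log2 fold change of -0.83, beside -0.04 for all genes. Only Col15a1 had an unadjusted p under 0.05 (background 2.3%), with a log2 fold change of -0.82 (SE 0.34, limma unadjusted p = 0.0294, adjusted p = 0.999). Without NKMOF-101-[Mn] tumor 1 it was -0.59 (limma unadjusted p = 0.130), and leaving out PS473@NKMOF-101-[Mn] tumor 3 gave -0.59 (0.132). All 3 PS473@NKMOF-101-[Mn] tumors lay below all 3 NKMOF-101-[Mn] tumors for 6 of 24 collagens, Col5a1, Col4a1, Col4a2, Col15a1, Col18a1 and Col8a1, beside 7.91% of all genes separated in either direction. Of these, Col4a1, Col4a2, Col15a1 and Col18a1 are basement membrane proteins. The endothelium score spanned 1.98 to 3.28 in NKMOF-101-[Mn] and 1.69 to 2.15 in PS473@NKMOF-101-[Mn], and the pericyte score 2.26 to 2.98 and 1.75 to 2.00. The macrophage score was separated as well, at 4.52 to 5.57 and 3.61 to 4.13. Of 7 macrophage genes 4 were lower at an unadjusted p under 0.05 (limma, median log2 fold change -1.16 for the list), among them Mrc1, a mannose receptor, at -1.92 (limma unadjusted p = 0.00953, adjusted p = 0.999). Of 6 tested pericyte genes 2, Mcam and Rgs5, were lower at that level (limma, median log2 fold change -0.72 for the list). The part of these cells in the 6 genes was not tested.

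Against M5@NKMOF-101-[Mn], which differs only in the ribozyme carried, 20 of 24 collagens had a higher mean in PS473@NKMOF-101-[Mn], but the median log2 fold change was 0.10 (all genes -0.01). None had an unadjusted p under 0.05 (limma, 0.591%). Col8a1 alone was separated, higher in PS473@NKMOF-101-[Mn] (background 4.48%).

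**Figure D4:**
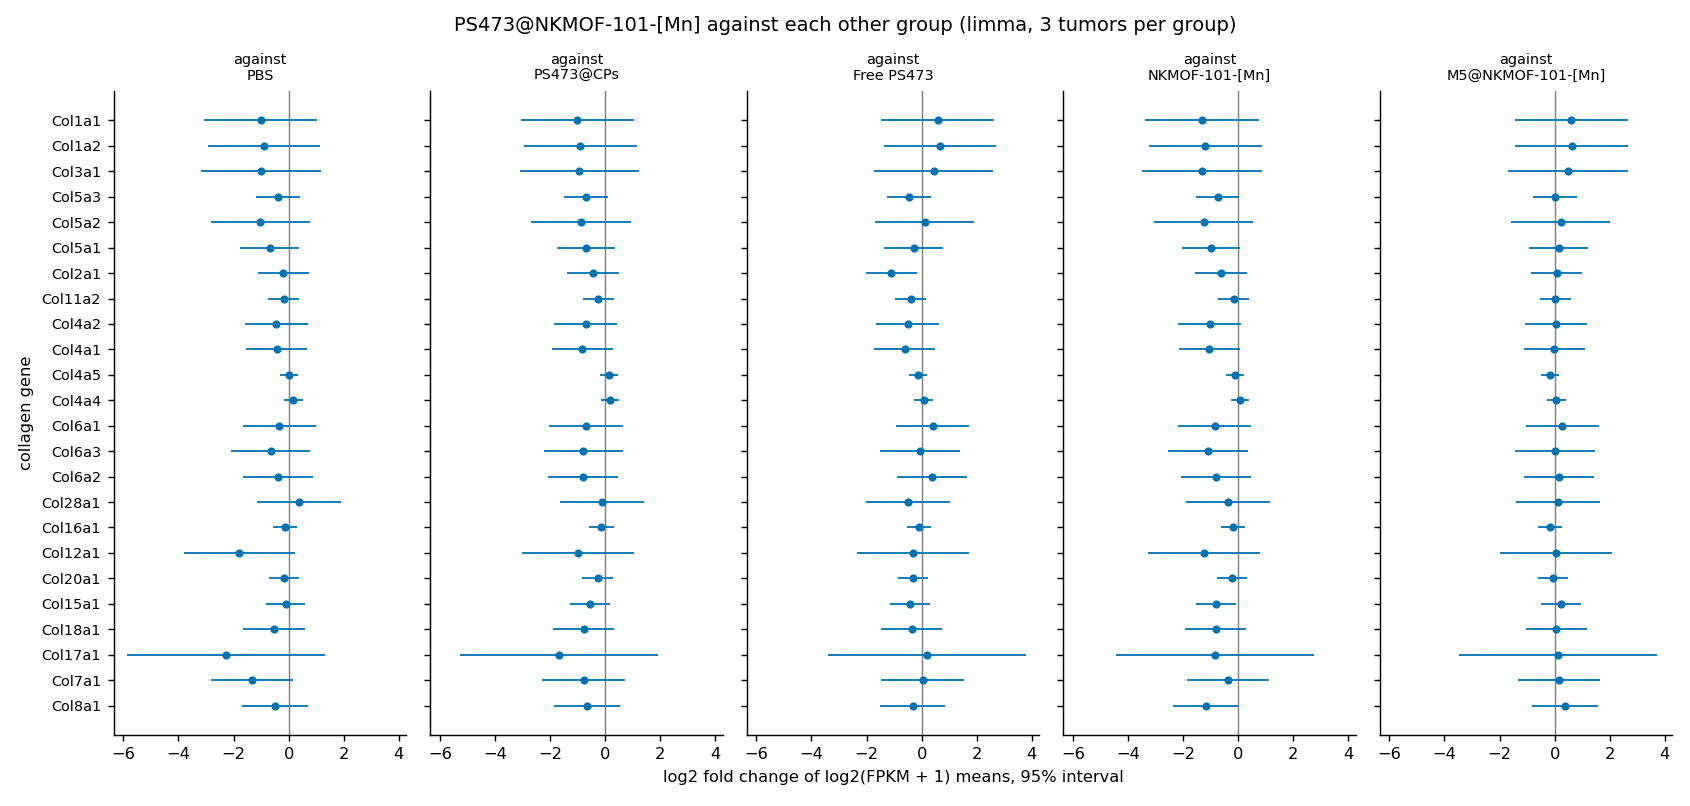
Points give the limma log2 fold change of each tested collagen between PS473@NKMOF-101-[Mn] and the group named above each panel, on the log2(FPKM + 1) scale, with lines for the 95% interval. Nearly all intervals cross 0, and the exceptions are Col2a1 against Free PS473 (-1.10) and Col15a1 against NKMOF-101-[Mn] (-0.82), both unadjusted.

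The other groups against PBS gave no call. M5@NKMOF-101-[Mn] had a lower mean for 20 of 24 collagens (median -0.57), with 0 at an unadjusted p under 0.05 (limma, 1.51%) and Col8a1 separated and lower (8.11%). It had the lowest of the 6 group means for 16 of the 24. NKMOF-101-[Mn] had a higher mean for 20 of 24 (median 0.30), with 0 at an unadjusted p under 0.05 (1.46%) and 0 separated (6.02%), and held the highest group mean for 9. Free PS473 was lower for 14 (median -0.17), with 0 at an unadjusted p under 0.05 (1.81%) and Col4a5 separated and higher (4.91%). PS473@CPs was higher for 16 (median 0.09), with 0 at an unadjusted p under 0.05 (2.09%) and 0 separated (5.11%). PBS tumor 1, with 134 FPKM of collagen, weighed on these values. Without it, 8 collagens in M5@NKMOF-101-[Mn] and 7 in Free PS473 had an unadjusted p under 0.05 against PBS (limma). In PS473@NKMOF-101-[Mn] against PBS 5 did, and still 0 were called after adjustment. The share of all genes at that p was not counted without PBS tumor 1, so these counts have no background. Whether collagens moved more than other genes there was not tested.

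Genes that handle collagen were described by their range over the tumors, with no test between the lists. Over all 12095 tested genes with no tumor at 0, 1186 exceeded 5-fold. Of 17 tested genes for folding and modification inside the cell, the median range over the tumors was 1.62-fold and 1 exceeded 5-fold. Serpinh1, the collagen chaperone HSP47, lay between 219 and 306 FPKM (1.39-fold), and Plod1, a lysyl hydroxylase, ranged 1.32-fold. The 8 genes for secretion and propeptide cleavage had a median range of 1.65-fold, and 1 exceeded 5-fold (Adamts2, a procollagen protease, 12.7-fold). By contrast, 9 of 11 genes for cross-linking and assembly outside the cell exceeded 5-fold, up to 586-fold for Lox, the lysyl oxidase, and the median range was 13.6-fold. Plod1 and Lox were picked for naming with their values in view. Of 7 genes for degradation 5 exceeded 5-fold, and of 5 receptor genes 1 did. No gene of these 5 lists was called in any of the 9 comparisons (limma), and per list and comparison 0 or 1 gene had an unadjusted p under 0.05.

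How the collagens moved together over tumors was asked with 14 pairs of genes over the 18 tumors and 4 pairs that involve an epidermal gene. The latter were taken within the 8 tumors with Krt14 under 1 FPKM and the 10 with at least 1 FPKM, since Krt14 and Col17a1 fell into separate clusters, which gave 22 relations in all. Both coefficients are on log2(FPKM + 1), with two-sided permutation tests (100000 resamples, exact for 8 tumors) and Benjamini-Hochberg adjustment over the 22. The smallest p that the resamples can give was 1e-05.

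Col1a1 was correlated most closely with chains of its own kind. Pearson's r was 0.996 with Col1a2 (Spearman's rho 0.957), 0.986 with Col3a1 (0.942) and 0.980 with Col5a2 (0.955), each at the smallest permutation p, adjusted p = 2e-05 for r. It was 0.950 with Col6a1 (rho 0.903), 0.875 with Col18a1 (0.816) and 0.777 with Col4a1 (0.703, permutation p = 0.00014 for r). Without the 2 tumors farthest from the median of Col1a1, these values were 0.994, 0.980, 0.972, 0.932, 0.826 and 0.684. After group means were removed they were 0.995, 0.983, 0.982, 0.943, 0.900 and 0.835, so the relations held among tumors of the same treatment. Within the 8 tumors low in Krt14, r with Col4a1 was 0.379 and with Col18a1 0.527.

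With single marker genes, Col1a1 had an r of 0.917 with Dcn, the fibroblast proteoglycan decorin (rho 0.884), and 0.912 with Pdgfrb, a receptor of pericytes and fibroblasts (rho 0.837), both at the smallest permutation p for r. Without the 2 farthest tumors, r was 0.880 and 0.873, and after removal of group means it was 0.933 and 0.896. The test was not passed for Serpinh1 (r = -0.288, rho = -0.352, permutation p = 0.249 and 0.153) or for Tyrp1, a pigment enzyme of melanoma cells (r = -0.366, rho = -0.276, permutation p = 0.135 and 0.265). Without the 2 farthest tumors, r was -0.288 with Serpinh1 and -0.229 with Tyrp1. Without Free PS473 tumor 1 it was -0.523 with Tyrp1, at an unadjusted permutation p of 0.0272. Dcn does not stand for every fibroblast marker. Of the 7 tested, 5 ranged over 5-fold and Dpt was at 0 in PBS tumor 1. Fbln1 ranged only 1.61-fold, from 37.9 FPKM in Free PS473 tumor 3 to 61.1 FPKM in M5@NKMOF-101-[Mn] tumor 1. Its correlation with Col1a1 was not computed.

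Col4a1 had an r of 0.990 with Col4a2 (rho 0.928), 0.941 with the endothelial gene Pecam1 (rho 0.870) and 0.887 with Pdgfrb (rho 0.812), each at the smallest permutation p for r. Without the 2 tumors farthest from the median of Col4a1, r was 0.982, 0.918 and 0.781, and after removal of group means 0.990, 0.934 and 0.909. Col6a1 had an r of 0.993 with Col6a2 (rho 0.971), 0.992 without the 2 farthest tumors.

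**Figure D5:**
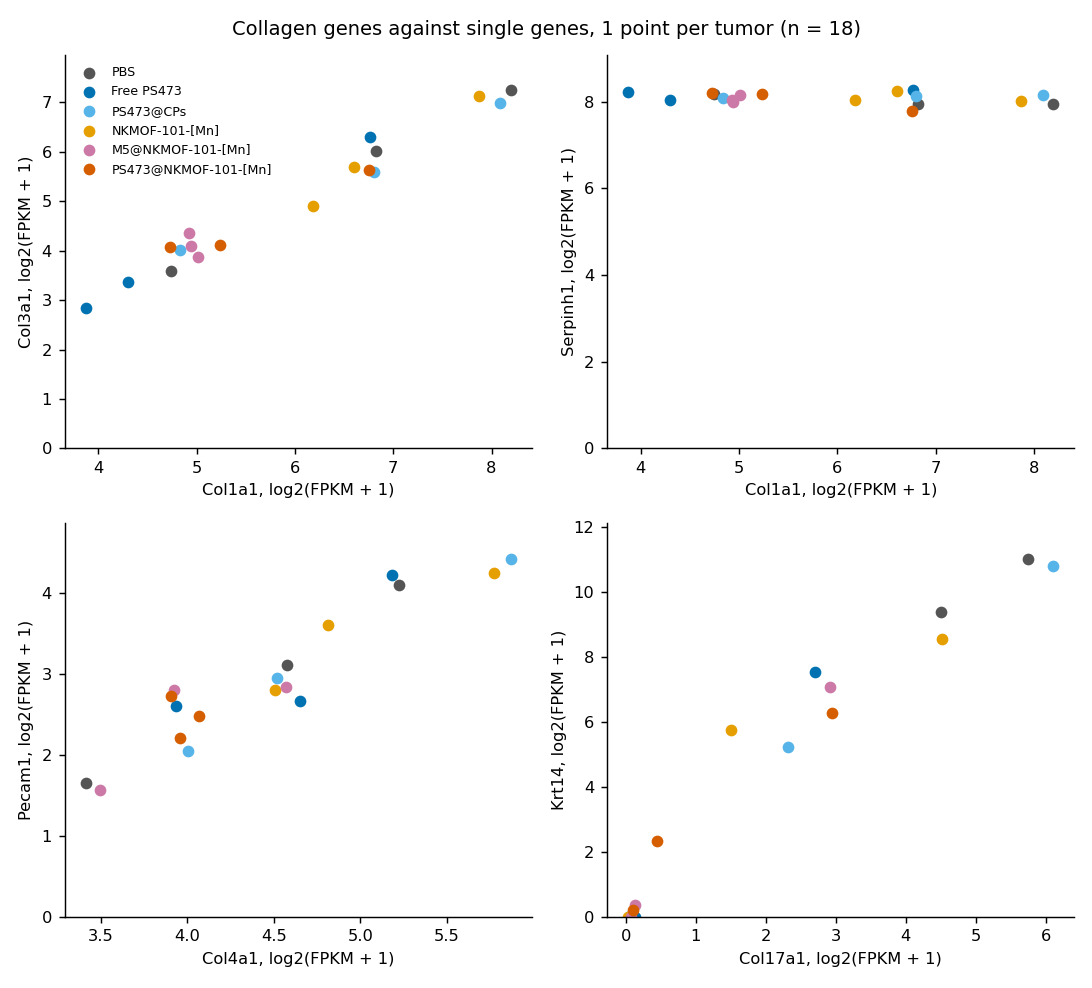
Each point is 1 tumor (n = 18), colored by group, with log2(FPKM + 1) on both axes. Col3a1 rises along a line with Col1a1 (r = 0.986), Serpinh1 stays level over the whole range of Col1a1 (r = -0.288), Pecam1 rises with Col4a1 (r = 0.941), and Krt14 against Col17a1 leaves 8 tumors in the low corner.

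In the 10 tumors with Krt14 of at least 1 FPKM, Col17a1 had an r of 0.964 with Krt14 (rho 0.915, permutation adjusted p = 5.5e-05 for r), Col7a1 had 0.838 with Krt14 (rho 0.867) and 0.844 with Col17a1 (rho 0.867), and Col1a1 had 0.828 with Col17a1 (rho 0.842). Permutation adjusted p for r was 0.00229, 0.00193 and 0.00433 for the last 3. Without the 2 farthest tumors the values of r were 0.936, 0.743, 0.707 and 0.910. In the 8 tumors with Krt14 under 1 FPKM, the 4 values were 0.613, 0.628, 0.284 and -0.280, none with an exact permutation p under 0.05. With Free PS473 tumor 1 left out, r for Col17a1 with Krt14 was 0.959 (exact permutation p = 0.00952), and with PS473@NKMOF-101-[Mn] tumor 1 left out, r for Col7a1 with Krt14 was 0.744 (exact permutation p = 0.0238). Col17a1 spanned only 0.0245 to 0.0992 FPKM in these 8 tumors. Col7a1 was between 0.206 and 0.559 FPKM in those 8 tumors, above the Col17a1 levels of each.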

How the data were processed

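Whole B16F10 tumors (18, in 6 groups of 3) were profiled by bulk RNA sequencing after poly(A) enrichment. The authors deposited FPKM values for 41079 genes with 1 length per gene, and the submitters' processing notes name the build GRCm39. The aligner and the counting tool are not given in the sources used here. Groups were taken from the sample titles, in which the last group's framework is spelled NKMOF-102-[Mn] and was read as NKMOF-101-[Mn], and every column of tumor values was used. FPKM values were transformed to log2(FPKM + 1), a scale that understates changes of low genes, and limma 3.58.1 (R 4.3.3) was run on the 12357 genes that averaged 1 FPKM or more, with a mean for each group, a prior variance that follows expression and no replicate block. Calls required a Benjamini-Hochberg adjusted p under 0.05 over all genes tested and a log2 fold change beyond 1 in either direction. The scripts were tested on simulated data. Only 49.8% to 53.9% of low values were whole fragments (tolerance 0.01), so no count model was used, and recovered depth is an estimate.

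The collagens, their classes, the gene lists and the pairs were chosen with earlier results of these data known. Every collagen with a mean of at least 1 FPKM was to be described, and in a comparison those with an unadjusted p under 0.05 were named. A list's score is the mean log2(FPKM + 1) of its genes. Separated means that all tumors of one group lay above all of the other. Correlations used Python 3.11.15 with scipy 1.17.1 and numpy 2.4.6. Promoter sequences came from RefSeq (GRCm38.p6), matched by symbol, and no coordinate was carried to GRCm39. Alternatives were another pseudocount, filter, scaling, fit, adjustment, a replicate block and leaving out each tumor. A skin epithelium covariate and the split by Krt14 for the other pairs were chosen after seeing the data. The raw reads were not analysed here.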

Additional observations from a re-analysis of the deposited data

How the results depend on the processing

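The count of collagens called stayed at 0 in every comparison and in the test over the 6 groups under each alternative run, the replicate block included (0 called), with 1 exception: with an unadjusted p under 0.05 and the same fold threshold, 1 collagen (Col2a1) was counted in PS473@NKMOF-101-[Mn] against Free PS473. No steady pairing by replicate number was seen: correlations of same-numbered deviations ran from -0.73 to 0.72, and 0 of 9 comparisons had all of them over 0.1. Deviations from means of 3 tumors depend on each other, so these values cannot decide whether same-numbered tumors were handled together. Leaving out 1 tumor moved the unadjusted counts most in M5@NKMOF-101-[Mn] against PBS (0 to 8) and Free PS473 against PBS (0 to 7), both without PBS tumor 1. PS473@NKMOF-101-[Mn] against PS473@CPs went from 0 to 6 collagens without PS473@CPs tumor 1, and Free PS473 against PBS to 6 without Free PS473 tumor 3. With the skin epithelium score as a covariate, 5 collagens had an unadjusted p under 0.05 in PS473@NKMOF-101-[Mn] against NKMOF-101-[Mn] and 4 in NKMOF-101-[Mn] against PBS, and 0 were called. For this fit and those with 1 tumor left out, the share of all genes at that p was not counted. These unadjusted counts therefore have no background. Within the 8 tumors with Krt14 under 1 FPKM, r no longer passed for Col1a1 with Col4a1 (0.379), Col18a1 (0.527) and Pdgfrb (0.606), or for Col4a1 with Pdgfrb (0.723). In the tumors with Krt14 of at least 1 FPKM, Col7a1 with Col17a1 fell to 0.707 without the 2 farthest tumors. Leaving out 1 tumor moved r for Col17a1 with Krt14 between 0.359 and 0.959 and for Col7a1 with Krt14 between 0.110 and 0.744 in the tumors with Krt14 under 1 FPKM, the highest without Free PS473 tumor 1 and PS473@NKMOF-101-[Mn] tumor 1, and for Col1a1 with Tyrp1 between -0.523 (without Free PS473 tumor 1) and -0.298, each past the threshold at the stronger end. The direction of each called correlation and of both named fold changes held under each alternative run. With 3 tumors per group and a median SE of 0.55 on the log2 scale, changes smaller than about the spread between tumors were not detectable. Larger ones were not called either. In PS473@NKMOF-101-[Mn] against PBS, Col17a1 at -2.27 (SE 1.68) and Col12a1 at -1.79 (SE 0.95) each had a limma adjusted p of 0.993. Collagens under 1 FPKM rest on few fragments.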
